A study of Mus musculus with 14 samples.

Results

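Peaks on transfer RNA (tRNA) genes were examined in 12 ChIP-seq peak lists for BMI1 and for H2AK119ub in cells of the mouse heart. The peaks were selected on their position alone: a peak was taken where at least 1 bp of it overlapped a nuclear tRNA gene of the RefSeq annotation of GRCm38 (biotype tRNA, symbols starting with n-T), and 606 of 39832 peaks, or 1.52%, were thus chosen by the presence and place of a peak in a list. The annotation held 403 such genes for 20 amino acids and 48 anticodons, between 70 and 107 bp long with a median of 72 bp. No peak touched more than 1 of these genes, and no gene held more than 1 peak of the same list, so a count of peaks in a list is also a count of genes.

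The Damage mice had received a single intraperitoneal injection of 20 mg/kg paraquat, a herbicide that generates superoxide, dissolved in PBS. The Homeostasis mice had received PBS without paraquat. Both were C57BL/6 mice aged 6 to 8 weeks, and Sca1+CD45- cells, a fraction used to enrich progenitor-type cells and depleted of leukocytes, were enriched from the heart by magnetic sorting. Each of Damage BMI1, Homeostasis BMI1, Damage H2AK119ub and Homeostasis H2AK119ub had 3 libraries, and the 2 Input libraries, labelled as untreated, were not analysed here. The labels do not say whether the libraries came from separate animals, so the p-values below measure the spread between these libraries, which may be technical. They also describe a culture step in low oxygen, and it is not clear from them if the crosslinked cells had gone through it. Peak lists carry no expression, so the labelled cell type was not checked against markers. Read depth is unknown, because the lists hold positions and a score of 1 for each of the 39832 peaks.

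tRNA genes are transcribed by RNA polymerase III from a promoter that lies within the gene. Its A box and B box are bound by the factor TFIIIC, which brings in TFIIIB and then the polymerase, and the transcript is trimmed, modified and charged with an amino acid by its aminoacyl-tRNA synthetase. BMI1 belongs to the Polycomb repressive complex PRC1. H2AK119ub, a single ubiquitin on histone H2A, is laid down by PRC1 complexes and is best known at silenced developmental genes transcribed by RNA polymerase II.

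The sequences below are the whole tRNA genes that lie within RefSeq promoter windows of GRCm38.p6, the source of sequence used here. They are shown because the B box lies inside the stretch covered by the peaks. Capitals mark the match to GGTTCNA, the first 7 letters of the B box motif,, which was searched on both strands, and each sequence is written 5′ to 3′ on the strand that holds the match, since the annotation table used gives no strand for these genes. The valine gene n-TVcac9 (chr13:23446142-23446214, minus strand) had a peak in all 6 Homeostasis lists, while the threonine gene n-TTagt9 (chr7:35234770-35234843, minus strand), the arginine gene n-TRtcg5 (chr7:79466419-79466491, plus strand) and the alanine gene n-TAagc16 (chr13:21222586-21222657, plus strand) had none in any list.
n-TVcac9: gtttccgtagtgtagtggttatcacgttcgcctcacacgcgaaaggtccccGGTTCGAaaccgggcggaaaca
n-TTagt9: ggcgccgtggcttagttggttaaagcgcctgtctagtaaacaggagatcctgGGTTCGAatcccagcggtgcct
n-TRtcg5: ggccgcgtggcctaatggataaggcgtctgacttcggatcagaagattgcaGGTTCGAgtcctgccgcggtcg
n-TAagc16: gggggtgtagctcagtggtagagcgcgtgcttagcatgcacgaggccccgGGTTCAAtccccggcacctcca
The motif was present in the gene with peaks and in the 3 genes without them. It spanned bases 52 to 58 of n-TVcac9, counted from the first base of the gene. The centres of the peaks on that gene lay at bases 45, 39 and 34 in Homeostasis BMI1 replicates 1, 2 and 3, and at bases 15, 41 and 35 in Homeostasis H2AK119ub replicates 1, 2 and 3. Of these 6 peaks, 5 were thus centred between bases 34 and 45, upstream of the motif but covering it. Over all 32851 promoter windows of 300 bp, 3196 (9.73%) held these letters on either strand, and 8 of the 10 windows that overlap a tRNA gene did so.

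After paraquat, tRNA genes were all but absent from the lists, as were most other peaks. Damage BMI1 lists held 0 peaks on tRNA genes of 19, 2 of 27 and 0 of 47 in replicates 1, 2 and 3, against 80 of 5020, 95 of 7513 and 109 of 4072 in Homeostasis BMI1. Damage H2AK119ub lists held 0 of 31, 1 of 68 and 0 of 25, against 90 of 2000, 111 of 13487 and 118 of 7523 in Homeostasis H2AK119ub. The treatments did not overlap for either antibody, with 0.667 ± 1.15 peaks per list in Damage BMI1 and 94.7 ± 14.5 in Homeostasis BMI1, and with 0.333 ± 0.577 in Damage H2AK119ub and 106 ± 14.6 in Homeostasis H2AK119ub (SD, n = 3 each). These counts chose the peaks and are given without a test.

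As a share of all peaks in the lists, the intervals for tRNA genes overlapped between the treatments. They held 3 of 217 Damage peaks, or 1.38% with an exact 95% interval of 0.286 to 3.99%, against 603 of 39615 Homeostasis peaks, or 1.52% with an interval of 1.40 to 1.65%. The 3 Damage peaks were all in replicate 2 lists, where they made up 7.41% of the Damage BMI1 list (0.910 to 24.3%) and 1.47% of the Damage H2AK119ub list (0.0372 to 7.92%). The 4 Damage lists with a count of 0 allow shares of up to 15.8% and 6.38% for BMI1 replicates 1 and 3, taken as 3 peaks of the list (17.6% and 7.55% by the exact interval used in the plot of shares). The limits for H2AK119ub replicates 1 and 3 lie between these, so a share like that at Homeostasis was not detectable there at this list length. The intervals cover counting error only.

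Among Homeostasis lists the share was 1.59, 1.26 and 2.68% for BMI1 replicates 1, 2 and 3, and 4.50, 0.823 and 1.57% for H2AK119ub replicates 1, 2 and 3. The longest list, H2AK119ub replicate 2, had the lowest share and the shortest list, H2AK119ub replicate 1, the highest, and without replicate 1 the H2AK119ub mean of 2.30 ± 1.94% (SD, n = 3) is 1.20%. The number of tRNA genes with a peak varied 1.48-fold from the lowest to the highest list, while the length of the lists varied 6.74-fold.

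**Figure D1:**
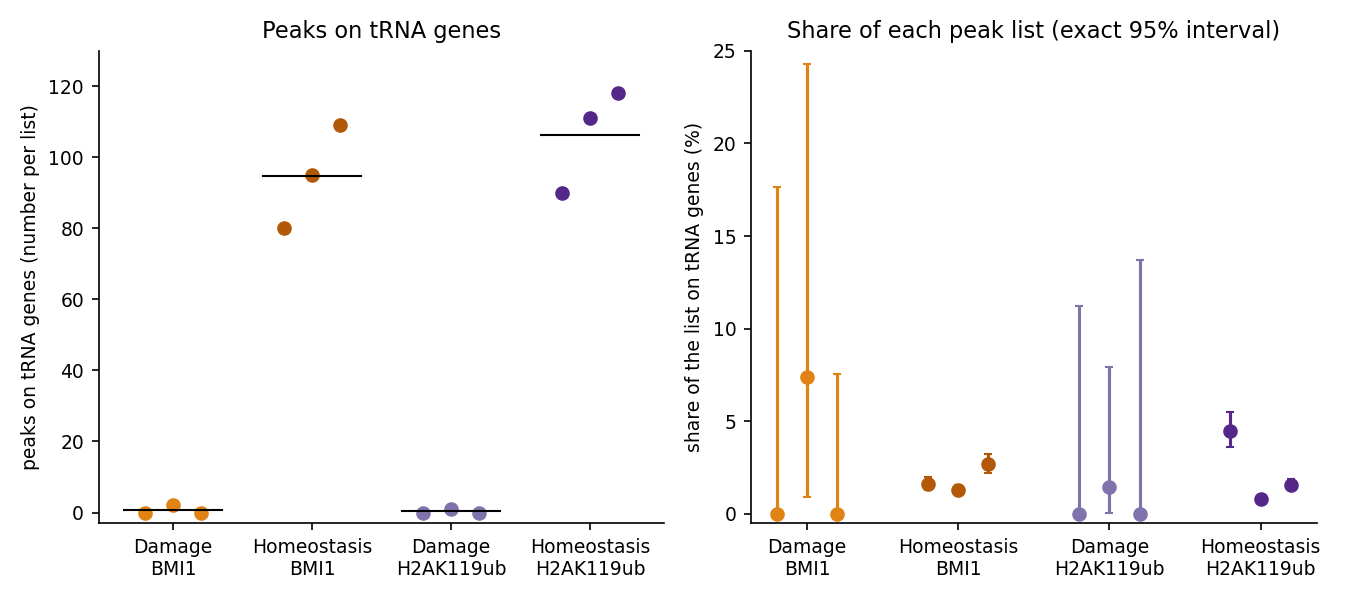
Peaks on tRNA genes per list (left, number) and as a share of each list (right, percent, with exact 95% intervals), for Damage and Homeostasis lists of each antibody. Each point is 1 library, in the order of replicates 1 to 3, and black lines are group means. Damage lists hold 0 to 2 such peaks and Homeostasis lists 80 to 118, while the intervals of the Damage shares reach across those of most Homeostasis shares.

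At Homeostasis, 144 of the 403 tRNA genes (35.7%) had a peak in at least 1 of the 6 lists, and 259 had none. Over all 49960 annotated nuclear genes, 9.77% had a peak in at least 1 Homeostasis list and 1.38% in all 6, against 14.6% in all 6 for tRNA genes. The genes with peaks recurred from list to list: 59 were in all 6 lists, 18 in 5, 19 in 4, 7 in 3, 21 in 2 and 20 in 1, so 96 (66.7% of the 144) were in 4 or more. Called by a peak in at least 2 of 3 libraries, 94 tRNA genes (23.3%) held BMI1 and 105 (26.1%) held H2AK119ub at Homeostasis. Over all nuclear genes the same rule called 3.8% for Homeostasis BMI1 and 4.99% for Homeostasis H2AK119ub. A long gene has more room for a peak, so 4060 other annotated genes of 150 bp or less, without tRNA and 5S ribosomal RNA genes, were counted too, and the rule called 0.369% of them for each antibody, while 0.419% had a peak in at least 1 Homeostasis list and 0.197% in all 6. The 5S genes, also transcribed by RNA polymerase III, had a peak in 56.5% of 69 copies for Homeostasis BMI1 and in 55.1% for Homeostasis H2AK119ub, with 62.3% in at least 1 Homeostasis list and 34.8% in all 6. Peaks in any Homeostasis list were held by 13 of 1003 small nuclear RNA genes, 1 of 1339 small nucleolar RNA genes and 1 of 1228 microRNA genes. The shares of tRNA genes follow from how the peaks were chosen and carry no test. None of 5 nuclear tRNA genes with other symbols held a peak. No list held any peak on the mitochondrial chromosome, so its 22 tRNA genes could not hold one.

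In Damage lists, 0 tRNA genes were called for either antibody, beside 0.012% of all nuclear genes for Damage BMI1, 0.01% for Damage H2AK119ub and 2.9% of 5S genes for each. A peak in any Damage list was held by 2 tRNA genes (0.496%), beside 0.138% of all nuclear genes, and both were also in Homeostasis lists. The isoleucine gene n-TIaat3 (chr13:23397060-23397133, anticodon AAT) had a peak in the replicate 2 list of both Damage antibodies, and in Homeostasis BMI1 replicates 1 and 2 and Homeostasis H2AK119ub replicate 1. It was the only isoleucine gene of 16 with a peak. The methionine gene n-TMcat10 (chr13:21931169-21931240, anticodon CAT) had one in Damage BMI1 replicate 2 and in 5 of the 6 Homeostasis lists. Its Damage peak was centred 17.5 bp below the gene's midpoint in genome coordinates, against 2.5 to 8.5 bp below it in the 5 Homeostasis lists. On n-TIaat3 the Damage peaks were centred 13.5 bp (BMI1) and 7.5 bp (H2AK119ub) below the midpoint. Its Homeostasis peaks lay 5.5 to 7.5 bp below it, so the Damage H2AK119ub peak was within that range. The 5S genes held 0, 2 and 2 Damage BMI1 peaks and 0, 2 and 2 Damage H2AK119ub peaks in replicates 1, 2 and 3, which was more than the tRNA genes in 3 of the 4 Damage lists with a 5S peak.

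By amino acid, the share of genes with a Homeostasis peak ran from all to none. All 7 phenylalanine genes had one, as did 13 of 16 aspartate genes, 13 of 16 proline genes and 20 of 28 glycine genes, while 0 of 10 tyrosine genes did. Asparagine, glutamine, histidine, isoleucine and threonine had 1 gene each, of 13, 16, 11, 16 and 17. Cysteine, the amino acid with the most annotated genes, had 5 of 57. Between these lay methionine with 11 of 16, lysine with 15 of 26, glutamate with 11 of 20, leucine with 12 of 25, tryptophan with 3 of 8, valine with 8 of 22, arginine with 8 of 24, serine with 6 of 22 and alanine with 7 of 33. The genes of an amino acid are often near-identical copies and many are neighbours, so they are not independent of each other. How the authors' mapping treated reads that match several copies is not given in the sources used here, so which copy of a family held the signal is uncertain.

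**Figure D2:**
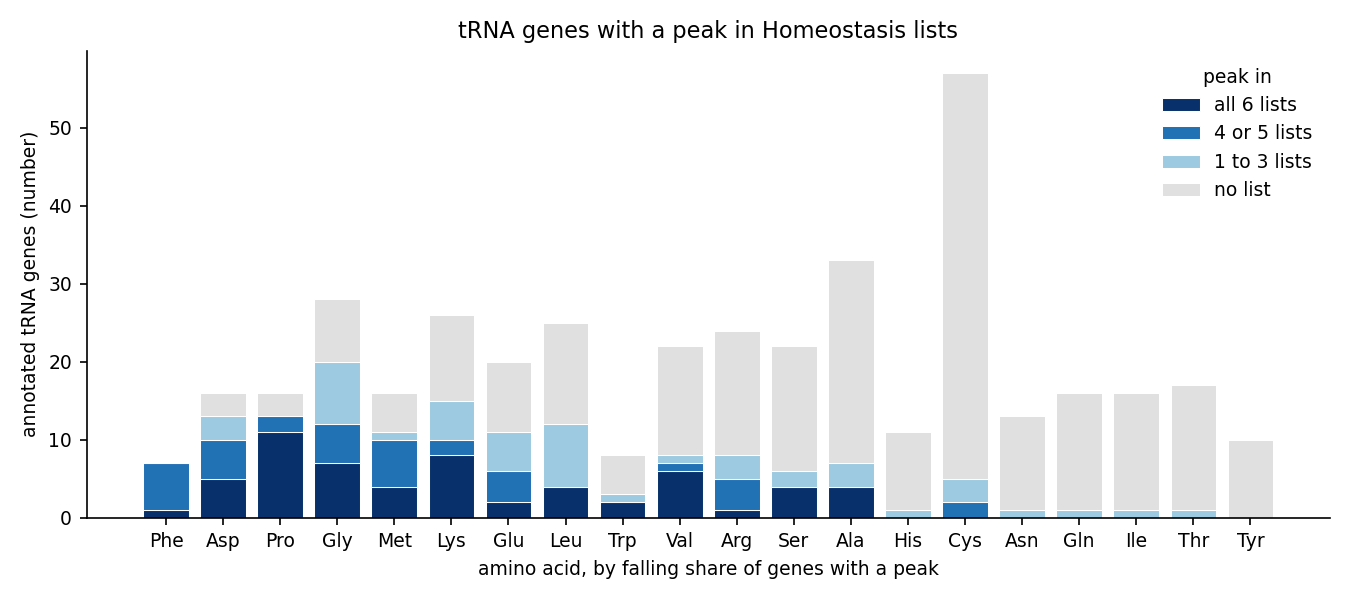
Annotated tRNA genes of each amino acid (number), split by the number of the 6 Homeostasis lists in which they had a peak, with amino acids in order of falling share of genes with a peak. All 7 phenylalanine genes are filled and none of the 10 tyrosine genes, and 11 of 16 proline genes are in all 6 lists.

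Proline genes recurred most, with 11 of 16 in all 6 lists. All 6 genes with anticodon AGG were in all 6 lists, and so were 4 of 7 with TGG and 1 of 3 with CGG, while the other 3 TGG genes (n-TPtgg2, n-TPtgg3 and n-TPtgg8) were in none. Per list there were 12, 12 and 13 proline genes with BMI1 and 12, 13 and 13 with H2AK119ub at Homeostasis, which is nearly the same number in a list of 2000 peaks as in a list of 13487. Phenylalanine genes, all with anticodon GAA, numbered 3, 5 and 7 with BMI1 and 5, 7 and 7 with H2AK119ub. Thus every phenylalanine gene had a peak, but 1 (n-TFgaa6, chr19:12002236-12002308) was in all 6 lists.

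Within an amino acid, the share of genes with a peak in at least 1 Homeostasis list differed by anticodon. Among glycine genes, 13 of 14 with GCC and 7 of 7 with TCC had a peak, against 0 of 6 with CCC and 0 of 1 with ACC. Among lysine genes, 15 of 24 with CTT had one and 0 of 2 with TTT. Leucine genes had a peak in 8 of 10 with CAG and 1 of 5 with AAG. They had one in 1 of 4 with CAA and in 1 of 3 each with TAA and TAG. By the call in at least 2 of 3 libraries, CAG genes numbered 2 of 10 for each antibody. AAG and TAA then had 1 gene each for each antibody, TAG had 1 for H2AK119ub only, and CAA had 0. The leucine contrast was thus absent under that rule. Glutamate genes had a peak in 9 of 12 with CTC and in 2 of 8 with TTC. Alanine genes had one in 6 of 13 with AGC, 1 of 9 with CGC and 0 of 11 with TGC, and serine genes in 0 of 7 with AGA and 4 of 8 with GCT. Of the 48 anticodons, 34 had a gene with a peak and 14 had none.

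The methionine genes all carry the anticodon CAT, so the initiator and elongator genes, which read the same codon at the start of and within a coding sequence, are not separated here, and the table held no gene with the selenocysteine anticodon. Methionine had more genes called for BMI1 than for H2AK119ub, 11 against 7, as did isoleucine with 1 against 0. Per list, 11, 11 and 10 methionine genes had a BMI1 peak at Homeostasis, against 10, 6 and 6 with an H2AK119ub peak. Replicate 1 of H2AK119ub lay within the BMI1 range, so the groups overlapped. The 4 methionine genes in all 6 lists were n-TMcat17 (chr8:121579229-121579301), n-TMcat7 (chr13:21710994-21711065), n-TMcat16 (chr15:57975983-57976055) and n-TMcat3 (chr15:69396623-69396694). The amino acids were compared after their values were seen, and no test was made.

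**Figure D3:**
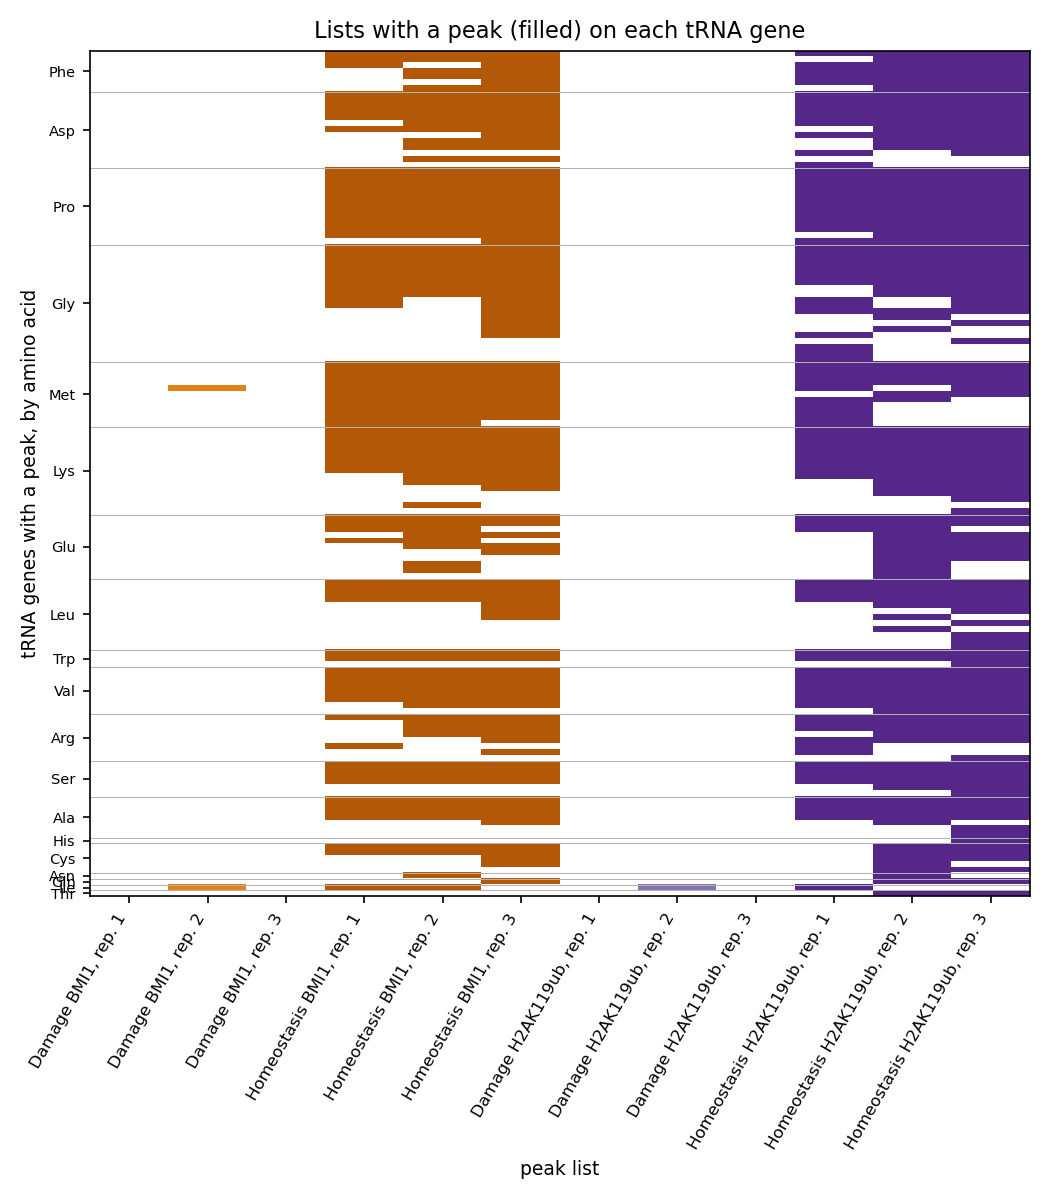
Presence of a peak (filled) or none (white) on each of the 144 tRNA genes with a Homeostasis peak (rows, by amino acid) in the 12 lists (columns, with Damage left of Homeostasis for each antibody). The Damage columns hold 3 filled cells, on a methionine and an isoleucine gene, and the same rows are filled under both antibodies for most genes.

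By the call in at least 2 of 3 Homeostasis libraries, 88 tRNA genes were shared by the antibodies, which is 93.6% of the 94 with BMI1 and 83.8% of the 105 with H2AK119ub. They are 21.8% of tRNA genes, beside 3.4% of all nuclear genes. Over all nuclear genes, 1700 were shared, or 89.5% of the 1900 with BMI1 and 68.2% of the 2494 with H2AK119ub. Of the other genes of 150 bp or less, without tRNA and 5S genes, 15 were called for each antibody and all 15 were shared. Sharing was thus common beyond tRNA genes, and no test of the difference was made. Only n-TDgtc6, an aspartate gene, met the rule for BMI1 with no H2AK119ub peak in any list. For H2AK119ub with no BMI1 peak in any list there were 7 genes, namely n-TKctt26, n-TCgca53, n-TTagt7, n-TDgtc13, n-TSgct8, n-TVaac3 and n-TEctc4. Among all nuclear genes, 33 of the 1900 with BMI1 had no H2AK119ub peak in any list. Likewise 308 of the 2494 with H2AK119ub had no BMI1 peak in any list. With a peak required in 3 of 3 libraries, 72 genes had BMI1 and 72 had H2AK119ub, 59 of them the same genes. No gene of either set was without a peak of the other antibody. For this stricter rule no share over all nuclear genes was counted, so these counts are not read as particular to tRNA genes. A pair of lists of the same antibody shared 74 to 99 tRNA genes, and a pair of different antibodies 71 to 98, so lists of different antibodies shared about as many as lists of the same one. This was not particular to tRNA genes. Of the other Homeostasis peaks, a mean of 71.2% overlapped another list of the same antibody and 78.1% a list of the other. These are shares of peaks, and fewer lists were searched for the same antibody.

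Of the 59 genes in all 6 lists, the 20 with the largest summed peak width over the lists were taken as examples. Peaks had nearly 1 width, 101 bp in 95.9% of all peaks, so this ranking separates 9 genes, and the other 11 tied at 606 bp and were taken in genome order. The 9 genes were led by the leucine gene n-TLtaa3 (chr10:12922571-12922653, 637 bp), the serine gene n-TStga3 (chr10:63429476-63429557, 629 bp), the tryptophan gene n-TWcca8 (chr11:62746015-62746086, 627 bp) and the proline gene n-TPtgg5 (chr14:51090647-51090718, 614 bp). At 612 bp stood the serine genes n-TScga3 (chr11:69110919-69111000) and n-TSgct2 (chr13:21492845-21492926) and the alanine gene n-TAagc9 (chr19:3576263-3576335). The methionine gene n-TMcat3 had 609 bp and the leucine gene n-TLaag4 (chr7:120917517-120917598) 608 bp. The tied genes were n-TPagg2, n-TGgcc4, n-TGtcc5, n-TLcag9, n-TVcac6, n-TGgcc8, n-TSgct7, n-TAagc14, n-TVaac8, n-TPtgg7 and n-TPagg5. All 20 lay outside protein-coding genes. Some stood close to one: n-TLaag4 was 179 bp from Polr3e, n-TAagc9 229 bp from Ppp6r3, n-TSgct7 287 bp from Knl1, n-TPtgg5 358 bp from Rnase4, n-TStga3 540 bp from Ctnna3, n-TVaac8 744 bp from Mynn and n-TScga3 953 bp from Per1.

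Position relative to protein-coding genes was then counted over all 403 genes. Within protein-coding genes, 13 of 34 tRNA genes had a Homeostasis peak, and outside them 131 of 369. Outside but within 1 kb of a protein-coding gene, 24 of 42 (57.1%) had one. Isolated genes and genes in clusters had similar shares, 38 of 110 single genes (34.5%) and 106 of 293 genes in clusters (36.2%). By gene length, 126 of 339 genes of 75 bp or less and 17 of 43 genes of 76 to 85 bp had a peak, against 1 of 21 genes over 85 bp. The longest class includes tyrosine and isoleucine genes, such as n-TYgta1 (93 bp) and n-TIaat16 (95 bp), so length was not separated from amino acid. By chromosome, all 7 genes of chromosome 8 had a peak in at least 1 Homeostasis list and 28 of 37 of chromosome 1, against 1 of 17 on chromosome X and 0 of 13 on chromosomes 4, 12 and 16 together. Of the 57 cysteine genes, 49 lie on chromosome 6, where 1 had a peak, against 4 of the 8 elsewhere. By the call in at least 2 of 3 libraries, chromosome 8 had 4 of 7 genes for each antibody. Chromosome 1 then had 11 of 37 for BMI1 and 15 for H2AK119ub, and chromosome X 1 of 17 for each.

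Genes less than 10 kb apart were grouped, which gave 64 clusters of 2 or more genes, of which 48 held a Homeostasis peak. The cluster with the most such genes (chr1:171064164-171081946, 17.8 kb) has 15 genes in the order glutamate, glycine, aspartate, leucine, glycine, repeated 3 times. Of these, 14 had a peak in at least 1 list and n-TLcag7 had none, but only n-TGtcc5 was in all 6 lists, and the 15 genes held 37 peaks in all. The cluster at chr13:23425646-23453514 (14 genes, 27.9 kb) was the opposite. It had 5 genes with a peak, each in all 6 lists, an alanine gene (n-TAagc13), a lysine gene (n-TKctt11), a proline gene (n-TPagg3), a valine gene (n-TVcac9, shown above) and a leucine gene (n-TLcag10), and its other 9 genes, 5 of them tyrosine genes, had none in any list. The cluster at chr17:23533962-23550335 had 5 of 7, 4 of them in all 6 lists, with lysine and proline genes filled and both arginine genes empty. The cluster at chr13:21907111-21940995 had 5 of 15, all of them methionine or aspartate genes, including n-TMcat10. Clusters at chr1:171033942-171045055 and chr1:171101838-171111515 had 4 of 5 genes each, and one at chr19:12002236-12012338 had 4 of 8, of phenylalanine and lysine.

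Neighbouring genes could thus differ over short distances. The alanine gene n-TAagc14, in all 6 lists, lies 124 bp from the tyrosine gene n-TYgta2, in none. The proline gene n-TPagg7, in all 6, lies 189 bp from another proline gene, n-TPtgg8, in none. Likewise the glycine gene n-TGgcc8 was in all 6 lists and the alanine gene n-TAcgc8, 244 bp away, in none. Altogether 38 genes without a peak lay within 1 kb of one with a peak.

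The peaks were centred on the tRNA genes. A 101 bp peak can overlap a 72 bp gene at 172 positions and covers it wholly at 30 of them (17.4%), and its centre may then lie up to 85.5 bp from the gene's midpoint. In the Homeostasis lists, 562 of 603 peaks (93.2%) covered the whole gene, with 88.9 to 96.3% per list, and 532 (88.2%) had their centre within 10 bp of the midpoint. The mean distance of the centre from the midpoint was 4.38, 5.13 and 5.12 bp in Homeostasis BMI1 replicates 1, 2 and 3, and 6.61, 4.33 and 5.34 bp in Homeostasis H2AK119ub replicates 1, 2 and 3. The antibodies overlapped, at 4.87 ± 0.432 bp for BMI1 and 5.43 ± 1.14 bp for H2AK119ub (SD, n = 3 each), with a difference of -0.55 bp (SE 0.703). Position chose the peaks and bounds this distance, so it is given as a description. Without Homeostasis H2AK119ub replicate 1 the difference is 0.0352 bp.

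**Figure D4:**
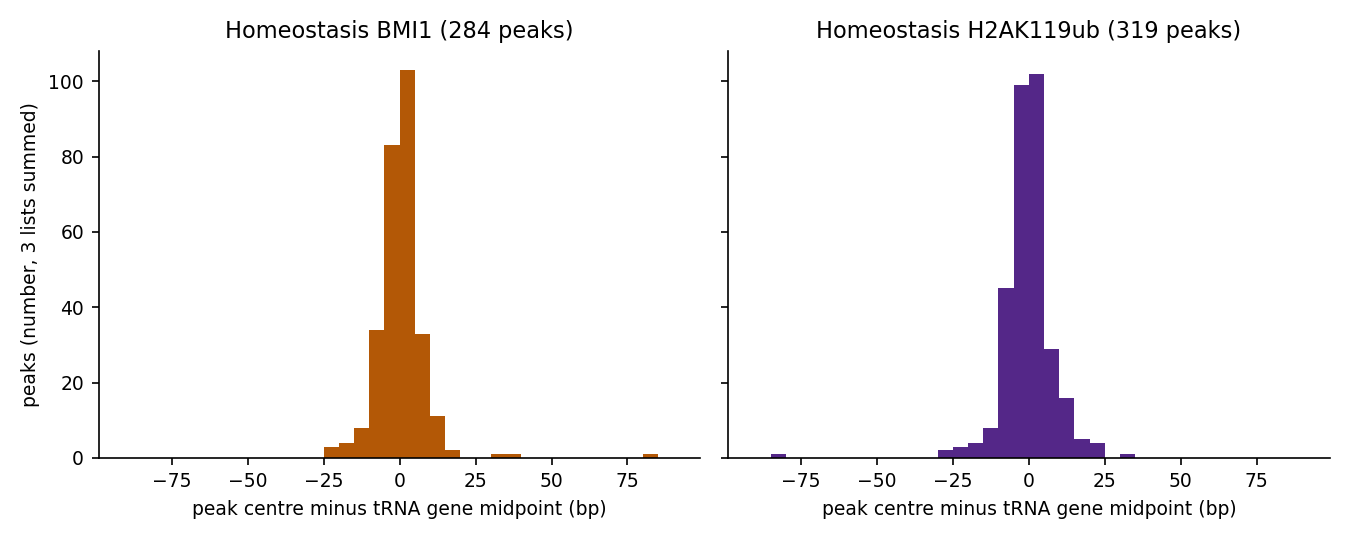
Distance of the peak centre from the midpoint of its tRNA gene (bp, in genome coordinates, bins of 5 bp) for Homeostasis BMI1 and Homeostasis H2AK119ub peaks, with the 3 lists of each antibody summed. Most of the 603 peaks lie within 10 bp of the midpoint under both antibodies, and 1 peak of each antibody lies near the largest distance that an overlap allows.

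For the 59 tRNA genes in all 6 lists, 6 peak centres per gene spanned a median of 9.0 bp (quartiles 5.5 and 12.5 bp). The median was 17.0 bp (10.0 and 32.0 bp) for 1157 other regions with a peak in all 6 lists. All peaks of a tRNA gene had to overlap that gene, which bounds this span, while the other regions were not chosen that way. The smaller span is thus not read as a property of tRNA peaks, and no test was made. At the edge of the overlap rule, 2 of the 606 peaks touched a gene by under 20 bp, n-TRcct5 by 4 bp in Homeostasis BMI1 replicate 3 and n-TDgtc12 by 5 bp in Homeostasis H2AK119ub replicate 1, and the next overlap was 51 bp on n-TDgtc9. Just outside it, peaks ended 6 bp from n-TRcct3, 9 bp from n-TSgct3 and 19 bp from n-TVaac6, and 16 peaks lay within 200 bp of a tRNA gene without touching one.

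Peak width was not used to choose the peaks beyond the overlap itself. A wider peak can overlap a gene at more positions, so the rule favours wider peaks to some degree. Peaks wider than 101 bp made up 2.50, 4.21 and 8.26% of the tRNA peaks, against 2.35, 3.82 and 4.42% of the other peaks, in Homeostasis BMI1 replicates 1, 2 and 3. In Homeostasis H2AK119ub replicates 1, 2 and 3 they made up 1.11, 6.31 and 5.93% of the tRNA peaks, against 2.04, 5.02 and 4.25% of the other peaks. The tRNA share was higher in 5 of 6 lists, by 1.07 percentage points (SD 1.64), a difference that did not pass the test (two-sided exact permutation test that flips signs within a list, p = 0.156, adjusted p = 0.26 over 5 tests). The shares of wider tRNA peaks averaged 4.99 ± 2.96% for BMI1 and 4.45 ± 2.90% for H2AK119ub (SD, n = 3 each), a difference of 0.539 points (SE 2.39, exact permutation p = 0.9, adjusted p = 0.9). The sign of that difference turns without Homeostasis BMI1 replicate 3 (-1.09 points) or without Homeostasis H2AK119ub replicate 1 (-1.13 points).

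Peaks on tRNA genes were found with the other antibody in 94.5 ± 6.27% of cases, against 78.1 ± 14.5% for other peaks of the same lists (SD over 6 lists). An overlap of at least 1 bp with any Homeostasis list of the other antibody was counted. The lists are thus looked up in each other, so the 6 differences tested below are linked and not independent. In Homeostasis BMI1 replicates 1, 2 and 3 it was 100, 97.9 and 99.1% of tRNA peaks, against 77.7, 87.5 and 88.7% of other peaks. In Homeostasis H2AK119ub replicates 1, 2 and 3 it was 94.4, 92.8 and 83.1% of tRNA peaks, against 89.6, 51.7 and 73.2% of other peaks. The tRNA share was higher in 6 of 6 lists, by 16.5 points (SD 13.4), and the two-sided exact permutation test gave p = 0.0312, the smallest it can give, but adjusted over the 5 tests p = 0.156, so the difference fails the correction. The difference was largest in the longest list, H2AK119ub replicate 2, at 41.1 points, and smallest in the shortest, H2AK119ub replicate 1, at 4.81 points; the part of list length in it was not tested.

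Overlap with another list of the same antibody was less uniform and drew on fewer lists, since no list was compared with itself. It was 98.8, 95.8 and 82.6% of tRNA peaks, against 69.9, 56.5 and 84.7% of other peaks, in Homeostasis BMI1 replicates 1, 2 and 3. In Homeostasis H2AK119ub replicates 1, 2 and 3 it was 86.7, 91.0 and 87.3% of tRNA peaks, against 87.0, 46.0 and 83.4% of other peaks. The tRNA share was higher in 4 of 6 lists, by 19.1 points (SD 21.1), and did not pass the test (exact permutation p = 0.125, adjusted p = 0.26). The lists are looked up in each other, so their values are linked.

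**Figure D5:**
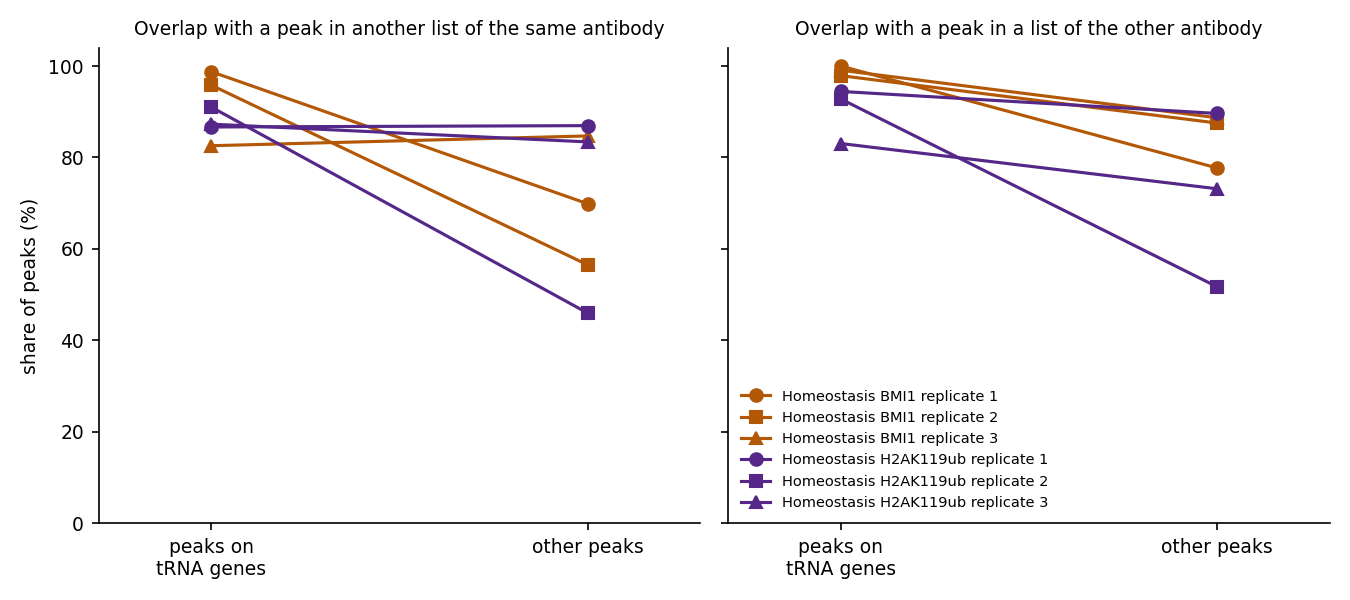
Share of peaks (percent) of each Homeostasis list that overlap a peak in another list of the same antibody (left) and in a list of the other antibody (right), for peaks on tRNA genes and for other peaks. Lines join the values of 1 library. Fewer lists were searched on the left than on the right, since no list was compared with itself. The tRNA value is the higher one in 4 of 6 lists on the left and in 6 of 6 on the right.

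Peaks on protein-coding genes of the tRNA pathway were counted in 3 lists of genes. Of 35 genes of the polymerase III machinery (polymerase subunits, TFIIIA, TFIIIB, TFIIIC, SNAPc and the repressor Maf1), 0 were called for either antibody at Homeostasis by a peak in the gene body, beside 5.72% of 21887 protein-coding genes for BMI1 and 7.46% for H2AK119ub. Gtf3c3, a TFIIIC subunit, had one in a single H2AK119ub list, beside 13.6% of protein-coding genes with a peak in at least 1 H2AK119ub list and 9.71% in at least 1 BMI1 list at Homeostasis. Of 40 tRNA maturation genes, 0 met the rule, although Elac2, which trims the 3′ end of the precursor, had a peak in 1 H2AK119ub list, and Pop1, a subunit of RNase P, in 1 list of each antibody. Of 24 genes for aminoacyl-tRNA synthetases and selenocysteine tRNA charging, 2 met it for BMI1, and 1 for H2AK119ub. Farsb, the beta subunit of phenylalanyl-tRNA synthetase, had a peak in 3 BMI1 and 2 H2AK119ub lists, and Sepsecs, which makes selenocysteine on its tRNA, in 2 BMI1 lists and no H2AK119ub list. No gene of the 3 lists had a peak in a Damage list, beside 0.242% of protein-coding genes. The median gene lengths of the 3 lists were 16.3, 11.7 and 27.0 kb, beside 17.2 kb for all protein-coding genes.

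The machinery and maturation lists each gained 1 gene when 5 kb on either side of the gene was included, Polr3e and Ang (angiogenin, a ribonuclease that cleaves tRNAs), beside 7.34% of protein-coding genes for BMI1 and 9.63% for H2AK119ub with that window. Both have a tRNA gene in all 6 Homeostasis lists beside them. For Ang it is n-TPtgg5, 358 bp away, while 2 other tRNA genes nearby, n-TTtgt1 and n-TYgta10, had no peak. For Polr3e, which encodes a subunit of the polymerase that transcribes tRNA genes, it is n-TLaag4, 179 bp from the annotated start of Polr3e (gene body chr7:120917778-120947435). The 250 bases before that start (chr7:120917528-120917777, plus strand, RefSeq GRCm38.p6) are shown because they hold this gene within the promoter window, with the 71 bases of n-TLaag4 that lie in the window in capitals, GGTTCNA among them.
Polr3e: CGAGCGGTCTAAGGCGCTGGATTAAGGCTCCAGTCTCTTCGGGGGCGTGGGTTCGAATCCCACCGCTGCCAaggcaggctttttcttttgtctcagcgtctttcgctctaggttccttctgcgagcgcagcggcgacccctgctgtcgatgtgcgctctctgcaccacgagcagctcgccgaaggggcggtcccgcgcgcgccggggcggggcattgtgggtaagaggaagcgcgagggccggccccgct
The peak centres lay 20.5, 22.5 and 21.5 bp below the midpoint of n-TLaag4 in genome coordinates in Homeostasis BMI1 replicates 1, 2 and 3, and 11.5, 20.5 and 21.5 bp below it in Homeostasis H2AK119ub replicates 1, 2 and 3. All 6 were thus displaced to the side away from Polr3e, by more than the mean distance of 4.33 to 6.61 bp in the lists.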

How the data were processed

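Per the labels' protocols, sorted cells were crosslinked and chromatin sonicated, and the agarose beads used for preclearing and for collecting complexes came with salmon sperm DNA. Bowtie2 and HOMER 4.8 were used with build GRCm38, per the submitters' processing notes. Peak-calling thresholds and any use of Input: not given in the sources used here. For each library the authors deposited 1 list of peak positions, not pooled, with a score of 1 for every peak, so the score ranks nothing and depth is unknown.

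Each list was intersected with the RefSeq gene table of GRCm38.p6 (minimum overlap 1 bp). Amino acids were read from the anticodon in the symbol. A gene was called where at least 2 of 3 libraries had a peak. Groups came from the labels. Tests were two-sided exact permutation tests over libraries with Benjamini-Hochberg adjustment over 5 tests. The overlap counts and the permutation tests were tried on simulated data with independent values. That trial covered neither the adjustment nor values linked between lists, as they are here. The table gives no strand for tRNA genes, so the planned signed distance by strand was replaced by the absolute distance, given as a description. Its comparison between antibodies is 1 of the 5 tests and is not reported, since the overlap rule bounds the distance. Symbols matched for 35 of 35, 40 of 41 and 24 of 24 listed genes. The named genes were those with a Damage peak, the 20 genes in all 6 Homeostasis lists with the largest summed width, methionine and selenocysteine genes, the 5 clusters with the most peak-holding genes (ties at 4 genes are all given), the amino acids at the extremes, and list members called for both antibodies. Other genes named were chosen after their values were seen, as neighbours, single exceptions, edges of the overlap rule or list members with a peak. The tRNA genes and gene lists were chosen with earlier results of these data known. Alternatives were the overlap rule, the call rule, cluster distance, gene window, width measure, replicate block and leaving out each library. Computation used Python 3.11.15, numpy 2.4.6, pandas 2.3.3, scipy 1.17.1 and matplotlib 3.10.9.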

Additional observations from a re-analysis of the deposited data

How the results depend on the processing

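Of 126 alternatives other than leaving out a library, 110 stayed on their side of the threshold or within bounds. Called from at least 1 of 3 libraries, Damage BMI1 called 2 tRNA genes and Damage H2AK119ub 1. The share of BMI1 genes that also held H2AK119ub was then 98.3%, and 81.9% with 3 of 3. For neither rule was a share over all nuclear genes counted. Counting as shared an overlap of at least 50% of the shorter peak gave a difference of 21.5 points for recurrence in the same antibody (exact permutation p = 0.0312, against p = 0.125 in the report). That p is unadjusted and the smallest the test can give, and the lists are linked, so it is not read as a passed test. The replicate block gave 16.5 points for the other antibody (exact permutation p = 0.25, the smallest that 3 blocks can give). The median in place of the mean gave a distance of 3.42 bp, and a gap of 50 kb gave 33 clusters. With 5 kb on either side, 1 machinery gene and 1 maturation gene held each antibody. From at least 1 of 3 libraries, H2AK119ub called 1 machinery gene, 2 maturation genes and 2 synthetase genes, and BMI1 called 1 maturation gene, beside 13.6% of protein-coding genes for H2AK119ub and 9.71% for BMI1. Leaving out each library in turn gave 73.4 to 96.0% of BMI1 genes with H2AK119ub, 67.6 to 93.2% of H2AK119ub genes with BMI1, 12.3 to 24.8 points for the other antibody (exact permutation test, where 5 lists cannot go below p = 0.0625), -1.13 to 1.78 points for the width difference and -1.10 to 0.0352 bp for the distance difference. Deviations of same-numbered libraries of the antibodies had correlations of 0.173, 0.0842 and -0.0533 over 17310 regions. Between different numbers they ran from -0.225 to 0.0976. The replicate 1 pair was thus the highest, and the other same-numbered pairs lay within the range of different numbers. The labels do not say that the numbers mark pairs, and they were not taken as such. The strand-oriented distance and alternatives on pseudogenes or the score could not be run.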
